A study of Zea mays with 6 samples.

Results

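The genes of proline and glycine betaine metabolism were followed in the root tips of maize seedlings that had been exposed to salt. A transcript was included when its deposited KEGG Orthology annotation held proline dehydrogenase (ProDH, K00318), delta-1-pyrroline-5-carboxylate synthetase (P5CS, K12657), P5C reductase (P5CR, K00286), P5C dehydrogenase (P5CDH, K00294), ornithine aminotransferase (OAT, K00819) or betaine-aldehyde dehydrogenase (BADH, K00130). These were 28 transcripts of 24 genes, out of 48312 transcripts of 43006 genes in the table. ProDH had 3 transcripts, P5CS 4, P5CR 2, P5CDH 3 (all of 1 gene), OAT 6 and BADH 10.

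The RNA came from the terminal 1 cm of the primary root (PR), crown root (CR) and seminal root (SR) of the cultivar Chang 7-2, grown in Hoagland's solution. Roots of each type stood for 24 h in solution with 100 mM NaCl (PR-salt, CR-salt and SR-salt) or with 0 mM (named by the root type alone), which gave 6 libraries. Seedlings were 3 days past germination when their PR was treated, 7 days for SR and 15 days for CR, so that root type and seedling age cannot be told apart. Each library pooled 10 to 15 roots and there was 1 library per condition, so no value below has a replicate error.

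Proline is made in plants from glutamate by P5CS and P5CR, or from ornithine by way of OAT, and it is degraded in mitochondria by ProDH and then P5CDH. Glycine betaine is made from choline, and BADH carries out the last step. The plant BADH enzymes belong to the ALDH10 family, whose members also oxidise aminoaldehydes that arise from polyamines. Both proline and glycine betaine are compatible solutes that many plants accumulate under salinity.

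The libraries held a median of 2549512 reads counted on transcripts and lay between 2.24% below and 4.47% above it, so that 1 read on a transcript of 1 kb was worth 0.376 to 0.401 RPKM (reads scaled to transcript length in kb and to the uniquely aligned reads of the library). Of the 28 transcripts, 15 had at least 50 reads over the 6 libraries, 18 had a read in every library, and the 13 below that number had 1 to 48 reads in all. All intervals given here are exact 95% intervals of the reads and cover counting error only. The tissue was checked by markers of dividing cells (MCM2, MCM4, histone H4 and cyclin B), for which 25 transcripts summed to 889 to 1377 RPKM, and by markers of green tissue (LHCB1, rbcS, psbO and psaD), for which 10 transcripts summed to 57.1 to 165 RPKM. The sum of the dividing-cell markers was lower with salt in every root type. It was 1090 against 889 RPKM in PR, 1122 against 892 in CR, and 1377 against 1060 in SR. Of these 25 transcripts 0 were called in any root type, where 0.369% to 0.519% of all tested transcripts were called. The sum of the green-tissue markers was higher with salt in PR (132 against 165 RPKM) and CR (57.1 against 115) and lower in SR (131 against 113). Of these transcripts 1 of the 10 was called (an LHCB1 transcript, AC207722.2_FGT009, with 33 reads in CR and 78 in CR-salt), and no marker transcript was at 0 in all libraries. In such bulk tissue fewer cells of a type and less RNA per cell cannot be told apart, and the part of these shifts in the results below was not tested.

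Salt-treated and untreated libraries were compared within each root type by the test of Audic and Claverie on the reads of the 2 libraries, and a differentially transcribed gene (DTG) needed an FDR of at most 0.001 and a log2 ratio of at least 1. This test compares libraries, not conditions. The transcript that stood out was the ProDH gene GRMZM2G053720, which was lower after salt in every root type, while the summed reads of P5CS and of P5CR differed by at most 1.39-fold between the libraries of a pair, and those of BADH were 1.09- to 1.17-fold higher with salt. GRMZM2G053720 was the only one of the 28 members that was a DTG in PR, where 0.519% of all tested transcripts were DTGs. No member was a DTG in CR (0.369% of all) or in SR (0.392% of all). At an unadjusted p below 0.05 there were 6 of 28 members in PR (9.45% of all transcripts), 7 of 26 in CR (9.27%) and 9 of 24 in SR (9.84%).

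ProDH catalyses the first step of proline degradation. GRMZM2G053720 had 38 reads without and 4 with salt in PR, 30 and 7 for CR, and 9 and 2 for SR. The corresponding levels were 10.0 RPKM (95% interval 7.11 to 13.8) and 1.02 RPKM (0.28 to 2.60) in the PR pair, 7.76 (5.24 to 11.1) and 1.87 (0.75 to 3.85) in the CR pair, and 2.44 (1.12 to 4.63) and 0.53 (0.06 to 1.92) in the SR pair. Each of the 3 salt-treated libraries was below each of the 3 untreated ones, so the ranges did not overlap. This gene had 77 of its 90 reads in the untreated libraries and reached a minimum of 50 reads only through them, so the separation is a description. Among transcripts with at least 50 reads, 4.79% of all lay below and 7.85% above in the same way, beside 1 and 0 of 15 members.

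**Figure D1:**
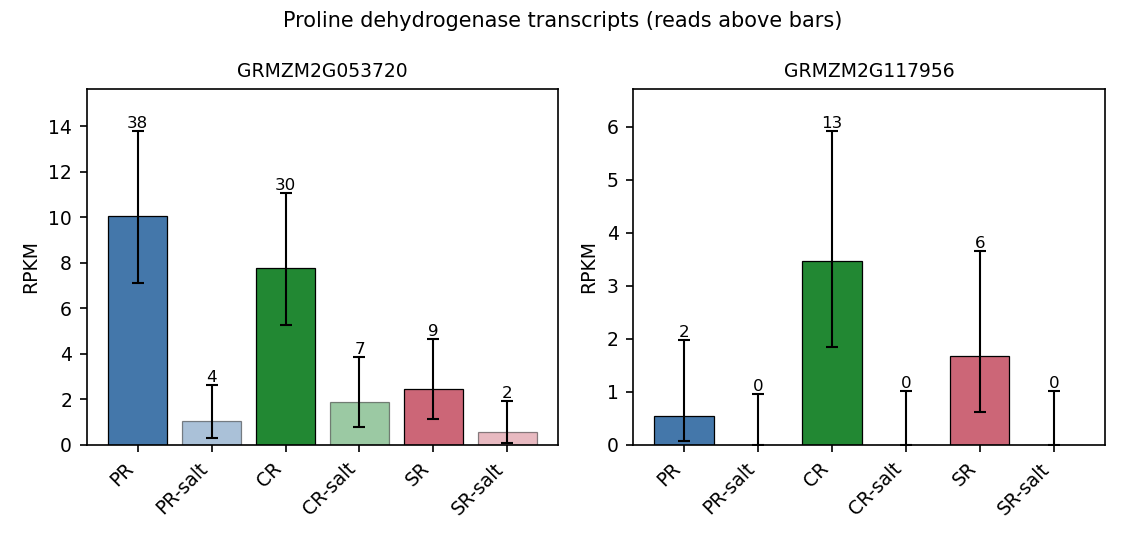
Level in RPKM (vertical axis, linear, separate scale for each panel) of the ProDH transcripts GRMZM2G053720 and GRMZM2G117956 in each library; full colour is untreated, pale colour is salt-treated, bars are 1 library each, error lines are 95% Poisson intervals and the numbers are reads. GRMZM2G053720 falls from 38 to 4 reads in PR, and GRMZM2G117956 has 0 reads in all 3 salt-treated libraries.

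The log2 ratio of GRMZM2G053720 was -3.31 (-5.25 to -1.83) in PR, with an Audic-Claverie FDR of 2.37e-06. In CR it was -2.05 (-3.49 to -0.84) with an FDR of 0.00993, which misses the threshold of 0.001. In SR it was -2.20 (-5.45 to 0.07) with an FDR of 0.421, on 11 reads in both libraries together. With fewer reads, less of the transcript was covered after salt. Reads spanned 39.7% of its coding length in PR and 7.64% in PR-salt, 32.5% and 17.0% in the CR pair, and 22.99% and 6.63% in the SR pair. The salt ratios of the root types were not told apart by the exact conditional test on 4 libraries, with FDRs of 0.945 for PR against CR and 1 for both other pairs.

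A second gene with ProDH as its first KEGG hit, GRMZM2G117956, was detected in untreated libraries only. The untreated PR library had 2 of its reads, the CR library 13 and the SR library 6, and each salt-treated library had 0. With a floor of 3 reads for 0, it was 4.20-fold lower in CR (Audic-Claverie FDR 0.00907) and 2.04-fold lower in SR (FDR 0.254). For PR no fold can be given. These folds leave out the counting error of the untreated reads. The exact intervals of the log2 ratio reached up to -1.56 in CR, -0.26 in SR and 2.35 in PR. Among the untreated libraries GRMZM2G117956 had its highest level in CR and GRMZM2G053720 in PR, both on few reads. The Poisson interval of GRMZM2G117956 in CR (1.84 to 5.92 RPKM) overlaps those in SR (0.61 to 3.65) and PR (0.07 to 1.97). For GRMZM2G053720 the intervals of PR and CR overlap. The reads of both genes together went from 40 to 4 in PR (10.4-fold lower, log2 ratio -3.38, interval -5.32 to -1.91), from 43 to 7 in CR (5.95-fold lower, -2.57, -3.97 to -1.41) and from 15 to 2 in SR (7.65-fold lower, -2.93, -6.11 to -0.83). The interval of this sum lay below 0 in all 3 root types.

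The third transcript of the ProDH entry, GRMZM2G009953, carried it only as the hit of rank 5, and its first hit was a lysyl-tRNA synthetase, an enzyme of translation. It had 7 reads without and 16 with salt in PR, 15 and 12 for CR, and 15 and 13 for SR, with no common direction, and it was left out of the sum above.

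The average effect of salt over the root types was estimated with the edgeR quasi-likelihood test, with root type as a covariate and the 3 root types standing in as replicates. Both ProDH genes fell out of that fit, which required at least 10 reads in at least 3 libraries. Without a filter on low counts the log2 effect of GRMZM2G053720 was -2.56 (SE 0.38) with an edgeR FDR of 4.75e-09, where 1.65% of all transcripts were called. With 10 or more reads asked of 2 libraries, a filter chosen after seeing the data, it was -2.56 (SE 0.38) with an edgeR FDR of 0.0136, where 0.746% were called. The gene met this second filter only through its untreated PR and CR libraries, where it is high, so that this value is a description. Effect and SE were nearly the same in both fits, while the edgeR p was 1.08e-11 without a filter and 3.33e-05 with the second filter. The smaller p and FDR thus do not come from a smaller spread of this gene and are not stronger evidence. GRMZM2G117956 was also called without a filter (edgeR FDR 5.91e-04), but its fitted fold depends on the prior count because its salt-treated libraries are all at 0.

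P5CDH, the enzyme after ProDH, had much the same reads with and without salt. Its main transcript GRMZM2G090087_T02, one of the RefSeq matches of which is ALDH12, had 80 reads in PR against 96 with salt, 94 against 94 in CR, and 67 against 63 in SR. The log2 ratios were 0.20 (-0.24 to 0.65) in PR, 0.05 (-0.38 to 0.47) in CR and -0.12 (-0.64 to 0.40) in SR. All 3 intervals include 0, and they exclude a fall as large as that of ProDH in PR. The reads lay on 21.7% to 22.2% of the coding length in each library, so the level rests on a part of this transcript. The other isoforms, _T01 and _T03, had 10 reads each over the 6 libraries.

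P5CS carries out the first step of proline synthesis from glutamate. The best covered P5CS transcript, AC203754.4_FGT008, had 60 reads without and 73 with salt in PR, 78 and 70 for CR, and 66 and 64 for SR, which is 14.3 to 18.3 RPKM. Its log2 ratios were 0.22 (-0.29 to 0.74) in PR, -0.11 (-0.60 to 0.37) in CR and -0.07 (-0.59 to 0.45) in SR. A doubling is outside each of these intervals. The remaining P5CS transcripts had few reads. GRMZM2G094309 had 18, GRMZM2G472614 had 14 and GRMZM2G061777 had 8 over all libraries, and at this depth a change in them was not detectable.

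All 4 P5CS transcripts together had 65 and 78 reads in the PR pair, 83 and 83 in the CR pair, and 69 and 73 in the SR pair. Set beside the ProDH genes with a first-ranked hit, the summed P5CS level was 1.71 times (1.13 to 2.60) the summed ProDH level in PR and 18.8 times (7.06 to 70.8) in PR-salt. In CR it was 1.97 times (1.34 to 2.91) and in CR-salt 13.6 times (6.31 to 34.8). In SR it was 4.30 times (2.43 to 8.09), and in SR-salt 38.9 times with an interval of 10.4 to 327, because only 2 ProDH reads stand behind it. These ratios are of summed RPKM and moved mainly through ProDH, whose sum went from 10.6 to 1.02 RPKM in PR while that of P5CS was 18.1 and 19.1.

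P5CR completes the synthesis of proline. GRMZM2G068665, which RefSeq lists under the synonym p5cr, had 83 reads in PR against 101 with salt, 69 against 92 in CR, and 107 against 97 in SR. The log2 ratio was 0.22 (-0.21 to 0.66) in PR, 0.46 (-0.01 to 0.93) in CR and -0.17 (-0.58 to 0.24) in SR. No interval of this transcript excludes 0. The second P5CR transcript, GRMZM2G133828, had 3 reads in all. With both summed, the log2 ratio was 0.25 (-0.18 to 0.69) in PR, 0.48 (0.01 to 0.95) in CR and -0.17 (-0.58 to 0.24) in SR. The interval of the sum thus lay just above 0 in CR only.

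**Figure D2:**
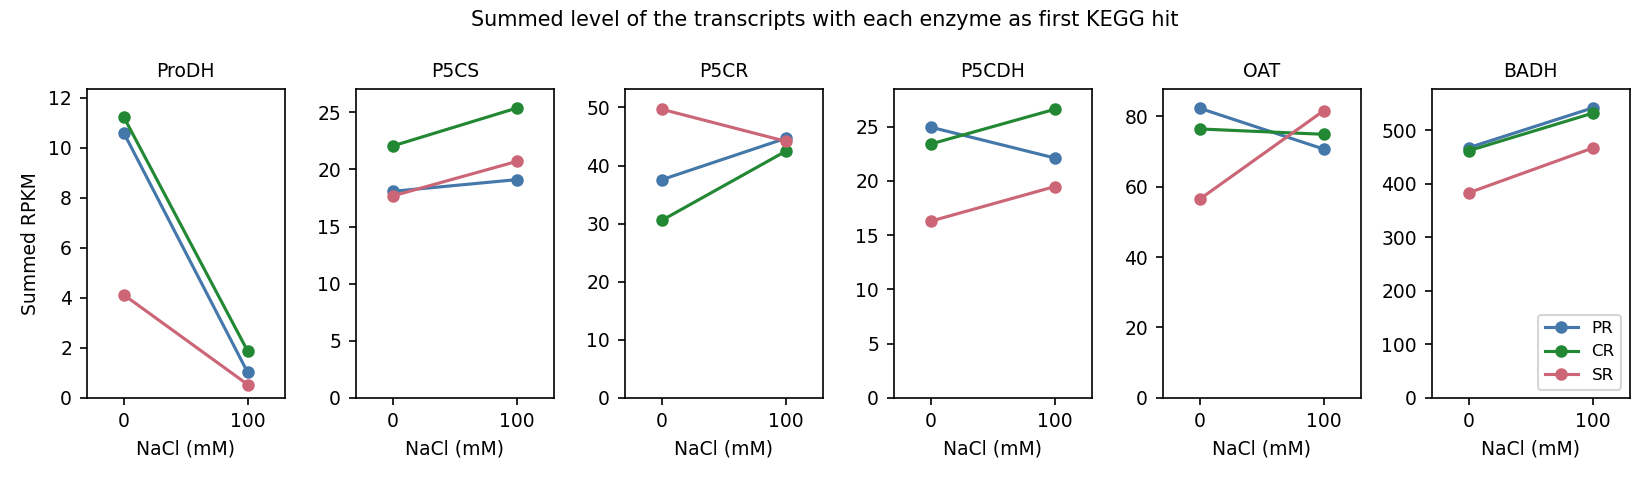
Summed level in RPKM (vertical axis, linear from 0, separate scale for each enzyme) of the transcripts whose first KEGG hit is the enzyme, at 0 and 100 mM NaCl; each line joins the untreated and the salt-treated library of 1 root type, and no error is drawn because each point is 1 library. ProDH is lower with salt in all root types (10.6 and 1.02 RPKM in PR), BADH is higher with salt in all of them (468 and 542 RPKM in PR), and OAT moves in different directions.

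OAT transfers the delta amino group of ornithine and so links arginine and ornithine to P5C. The gene with the highest-scoring OAT hit, GRMZM2G080828, had 210 reads without and 172 with salt in PR, 180 and 163 for CR, and 122 and 166 for SR. The log2 ratio was -0.35 (-0.65 to -0.05) in PR, -0.10 (-0.41 to 0.22) in CR and 0.42 (0.07 to 0.77) in SR. PR and SR thus lay on opposite sides of 0. The difference between the PR and the SR ratio was -0.76 on the log2 scale (1 read added), with an FDR of 0.0374 in the exact conditional test on the 4 libraries, short of the threshold of 0.001 and a difference of 1. GRMZM2G514616, with a low-scoring OAT hit (bit score 66.6), had 23, 26, 27, 29, 20 and 35 reads for PR, CR and SR, each without and then with salt, and all 3 intervals of its ratio include 0.

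The transcript of the OAT entry with the highest level, 53.4 to 129 RPKM, was GRMZM5G817886_T02, but its first hit is acetylornithine aminotransferase, an enzyme of ornithine synthesis, and OAT is the second. It had 361 reads in PR against 477 with salt, 427 against 502 in CR, and 204 against 372 in SR. The untreated SR library was the lowest of the 6. The log2 ratios were 0.34 (0.14 to 0.54) in PR, 0.28 (0.09 to 0.47) in CR and 0.84 (0.59 to 1.09) in SR, so the transcript was higher with salt in each root type. The ratio in SR had an Audic-Claverie FDR of 2.40e-09 but stayed below the log2 limit of 1. Among all transcripts 1.2% passed that FDR alone in SR, and this was the only member that did.

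GRMZM2G108125_T01, likewise an acetylornithine aminotransferase by its first hit, had 14 reads without and 22 with salt in PR, 17 and 19 for CR, and 25 and 15 for SR, with intervals that include 0 in each root type. Its isoform _T02 and the isoform GRMZM5G817886_T01 had 1 and 3 reads.

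BADH oxidises betaine aldehyde to glycine betaine. The 10 BADH transcripts made up the largest level of all 6 enzymes, with a summed 383 RPKM in SR to 542 RPKM in PR-salt. Their reads together went from 1419 to 1685 in PR (log2 ratio 0.19, 0.09 to 0.29), from 1529 to 1614 in CR (0.12, 0.02 to 0.23) and from 1193 to 1429 in SR (0.23, 0.12 to 0.34). With library totals as the scale, the interval of the sum lay above 0 in each root type, at 1.14-, 1.09- and 1.17-fold, on counting error alone. Its lower end in CR, 0.02, is close to 0. The TMM factor was lower in each untreated library than in its salt-treated one (0.987 and 1.005 in CR and CR-salt). Scaling by it would lower these ratios, and the intervals were not computed in that way. In the CR pair this scaling moved the log2 ratio of GRMZM2G053720 from -2.0544 to -2.08. That shift is larger than 0.0214, the lower end for BADH in CR before rounding. The interval above 0 in CR thus holds for library totals only.

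GRMZM2G016189 (ALDH10A9, also AMADH1b in RefSeq) and GRMZM2G135470 (ALDH10A5, also AMADH2) carry the best BADH matches with nearly full coverage of the coding length (98.1% to 99.7%). GRMZM2G016189 had 468 reads in PR against 554 with salt, 564 against 533 in CR, and 406 against 531 in SR. Its log2 ratio was 0.18 (0.00 to 0.37) in PR, -0.04 (-0.21 to 0.14) in CR and 0.36 (0.17 to 0.55) in SR. GRMZM2G135470 had 414 reads without and 492 with salt in PR, 478 and 526 for CR, and 365 and 443 for SR. Its log2 ratio was 0.19 (-0.001 to 0.38) in PR, 0.18 (0.002 to 0.365) in CR and 0.25 (0.05 to 0.46) in SR. The interval in PR includes 0, and that in CR nearly does. Both transcripts were lowest in the untreated SR library.

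GRMZM2G146754 and GRMZM2G013214 match the same RefSeq gene, AMADH1A (ALDH10A8), so their reads may not be independent measures. GRMZM2G146754 had 153 reads in PR against 207 with salt, 110 against 169 in CR, and 94 against 136 in SR. It was higher with salt in each root type, with log2 ratios of 0.38 (0.07 to 0.69) in PR, 0.66 (0.31 to 1.02) in CR and 0.50 (0.12 to 0.90) in SR, and all 3 intervals lie above 0. GRMZM2G013214 had 24 reads without and 27 with salt in PR, 17 and 22 for CR, and 20 and 23 for SR, also higher in each root type, but with intervals that include 0.

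**Figure D3:**
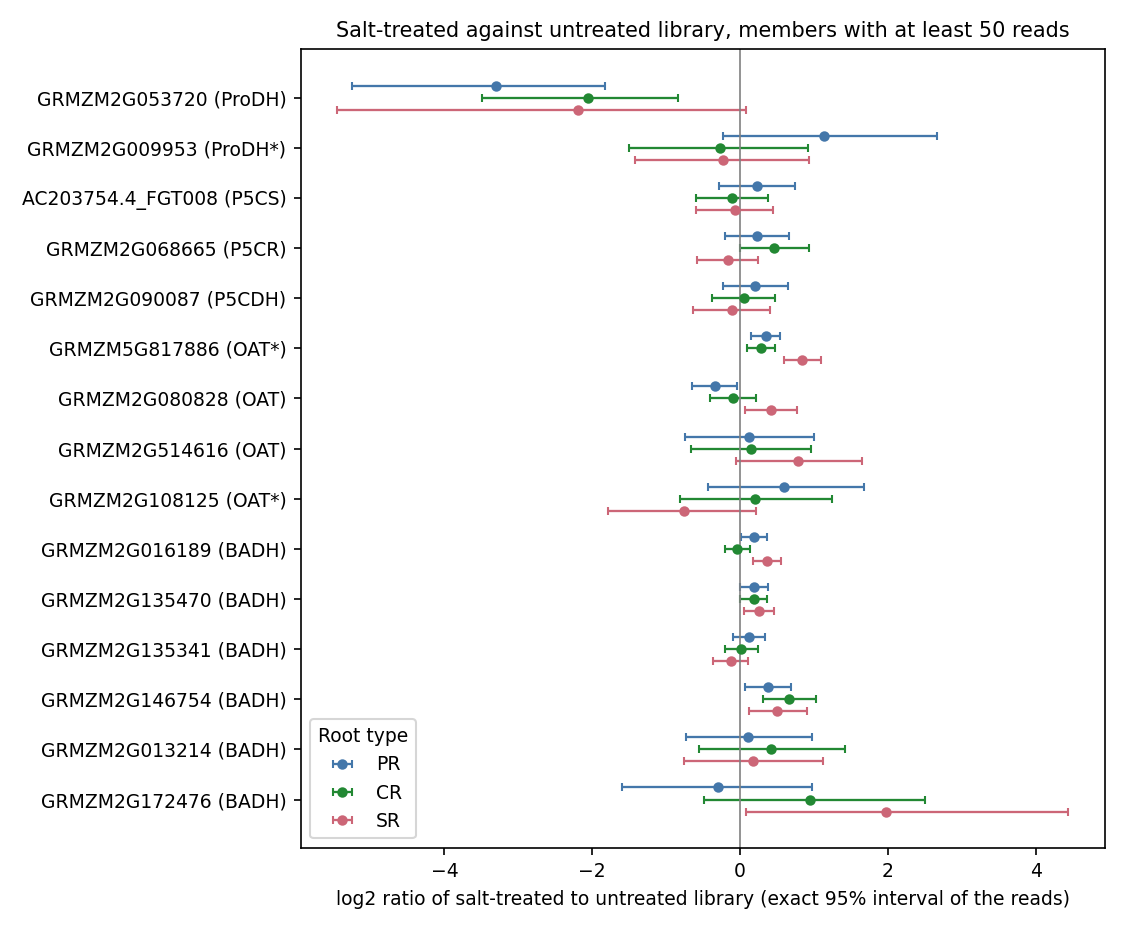
log2 ratio of the salt-treated to the untreated library (horizontal axis) for the 15 members with at least 50 reads, by root type; points are ratios of RPKM, lines are exact 95% intervals of the reads, and an asterisk marks a transcript for which the enzyme is a lower-ranked hit. GRMZM2G053720 lies at -3.31, -2.05 and -2.20, and the 3 intervals of GRMZM2G146754 and of GRMZM5G817886 lie above 0.

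The other BADH transcripts match the enzyme less well. GRMZM2G135341 (bit score 227, against 803 and 931 for the full-length genes) had 336 reads in PR against 380 with salt, 341 against 334 in CR, and 298 against 278 in SR, and each interval of its ratio includes 0. GRMZM2G172476 (bit score 150) had 13, 11, 7, 13, 3 and 12 reads for PR, CR and SR, each without and then with salt, on 8.63% to 8.80% of its length. Its ratio in SR, 1.97 (0.08 to 4.44), rests on 15 reads. The remaining 4 BADH transcripts had 1 to 48 reads in all.

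In the edgeR fit over the root types 14 members passed the filter and 0 were called for salt, where 0.613% of all transcripts were called. DESeq2 also called 0, and 2 of the 14 members had an unadjusted p below 0.05 in edgeR, near the 12.5% of all transcripts. They were GRMZM2G146754, with a log2 effect of 0.48 (SE 0.12, edgeR FDR 0.109), and GRMZM5G817886_T02, with 0.44 (SE 0.11, edgeR FDR 0.114). Both were higher with salt in 3 of 3 root types. These values depended on the root types included. Without the PR libraries both were called, with effects of 0.56 (edgeR FDR 0.0184) and 0.50 (edgeR FDR 4.34e-04). The share of all transcripts called in that fit is not given here. Without the CR libraries the effects were 0.40 (edgeR FDR 0.404) and 0.54 (edgeR FDR 0.156), and without the SR libraries 0.48 (edgeR FDR 0.291) and 0.28 (edgeR FDR 0.521). Without a filter both were called too, with edgeR FDRs of 0.0433 and 0.00265.

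Among transcripts with at least 20 reads in a pair of libraries, the median log2 ratio of the members was 0.19 in PR, 0.16 in CR and 0.16 in SR, beside 0.03, 0.02 and 0.02 for all such transcripts. Of these members 12 of 15 were higher with salt in PR, 11 of 16 in CR and 7 of 13 in SR, against 53.6%, 52.3% and 52.4% of all. Higher in all 3 root types were 5 of 13 members (20.7% of all transcripts), and 0 of 13 were lower in all 3 (14.8% of all), since neither ProDH gene reached 20 reads in SR.

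Between root types, the question was whether a member differed in level whatever the salt, with salt as a term in the edgeR fit. GRMZM2G146754 was higher in PR than in SR by 0.61 on the log2 scale (SE 0.15, edgeR FDR 0.041), the only member called where 4.68% of all transcripts were called. Its levels were 104 and 136 RPKM in PR and PR-salt and 65.8 and 93.4 RPKM in SR and SR-salt, so untreated SR was lowest and PR-salt highest, but PR and SR-salt were close. The call was lost with DESeq2 (adjusted p 0.684), and without the PR (0.126), the SR (0.186) or the SR-salt library (0.233).

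GRMZM5G817886_T02 was higher in CR than in SR by 0.71 (SE 0.14, edgeR FDR 0.0409), the only member called in that contrast, where 1.1% of all transcripts were called. Its levels were 107 and 129 RPKM in CR and CR-salt and 53.4 and 95.5 RPKM in SR and SR-salt. PR was higher than SR by 0.53 (edgeR FDR 0.0615), short of the threshold. That difference was called in 5 of 6 fits with 1 library left out (edgeR FDR 0.00109 to 0.0401) and without a filter (0.00256), but not without the SR library (0.29, edgeR FDR 0.555) or with DESeq2 (adjusted p 0.558). The call in CR against SR was lost with DESeq2 (adjusted p 0.224) and without the CR (0.214) or the SR library (0.337). No member was called between PR and CR by edgeR or DESeq2, where edgeR called 6.47% of all transcripts, and 1 member (GRMZM2G146754) had an unadjusted p below 0.05, beside 17.6% of all transcripts.

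**Figure D4:**
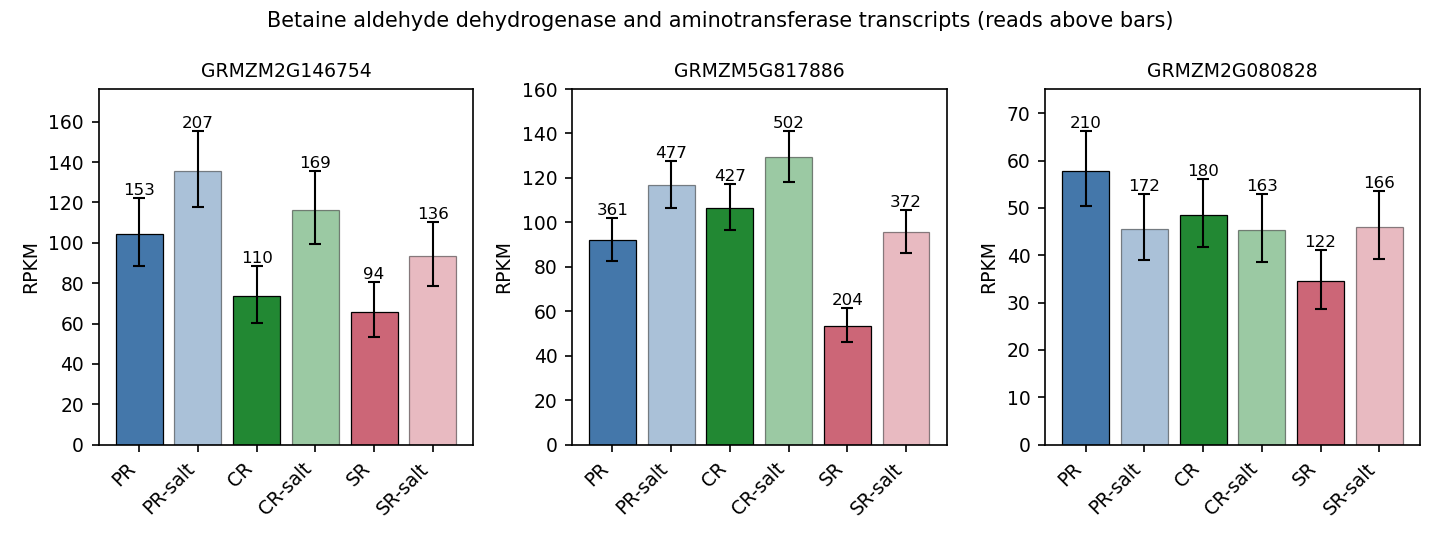
Level in RPKM (vertical axis, linear, separate scale for each panel) of GRMZM2G146754 (BADH), GRMZM5G817886_T02 and GRMZM2G080828 (both of the OAT entry) in each library; full colour is untreated, pale colour is salt-treated, bars are 1 library each, error lines are 95% Poisson intervals and the numbers are reads. Untreated SR is the lowest library in all 3 panels, and GRMZM2G080828 is lower with salt in PR (210 to 172 reads) and higher in SR (122 to 166 reads).

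For GRMZM2G053720 the untreated level was lowest in SR, with 9 reads against 38 in PR and 30 in CR, and the Poisson intervals of SR (1.12 to 4.63 RPKM) and PR (7.11 to 13.8 RPKM) do not overlap. The intervals of PR and CR do. The gene entered the fit with at least 10 reads in 2 libraries only through untreated PR and CR, so the following differences from SR are descriptions. The difference between PR and SR was 1.83 (SE 0.47, edgeR FDR 0.0535) and that between CR and SR 1.70 (SE 0.48, edgeR FDR 0.162). Without a filter the differences and their SEs were nearly the same (1.83, SE 0.47, and 1.71, SE 0.48). Both were called there, with edgeR FDRs of 0.00428 and 0.0283. The share of all transcripts called in these contrasts is not given here, so these calls are descriptions too.

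The salt ratio itself was compared between root types for the 16 members with at least 20 reads in the 4 libraries, and 0 were called in any pair, where the test called 0.662% of all transcripts for PR against CR, 0.708% for PR against SR and 0.186% for CR against SR. At an unadjusted p below 0.05 there were 0, 2 and 3 members, beside 10.4%, 10.3% and 8.18% of all transcripts. The lowest FDRs were those of GRMZM5G817886_T02 for CR against SR (-0.56, FDR 0.0344) and of GRMZM2G080828 for PR against SR, given above.

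Neighbouring routes, taken by KEGG entry, were mostly without calls. Of 48 transcripts of arginine, ornithine and glutamate supply, 1 was a DTG in CR and in SR and 0 were in PR. Both calls were GRMZM2G085078_T02, a glutamate synthase, which had 80 reads without and 82 with salt in PR, 49 and 146 for CR, and 52 and 143 for SR. It rose in CR by a log2 ratio of 1.62 (1.14 to 2.12, FDR 7.78e-11) and in SR by 1.43 (0.96 to 1.92, FDR 1.88e-08), while its ratio in PR was -0.02 (-0.49 to 0.44). The average effect over the root types was 0.97 (SE 0.26, edgeR FDR 0.136).

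Of 20 transcripts of choline supply, which provides the substrate of glycine betaine synthesis, 1 was a DTG. This was GRMZM2G060886_T02, a phosphoethanolamine N-methyltransferase, the enzyme that methylates phosphoethanolamine on the way to choline. It had 493 reads in PR against 686 with salt, 1024 against 2829 in CR, and 1358 against 1574 in SR. The CR-salt library was the highest, with a log2 ratio of 1.51 in CR (1.41 to 1.62, FDR 7.93e-202), beside 0.42 (0.25 to 0.59) in PR and 0.19 (0.08 to 0.29) in SR. The average effect was not called (0.68, SE 0.20, edgeR FDR 0.175).

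Of 25 transcripts of polyamine synthesis, which draws on ornithine and arginine, 1 was a DTG. The ornithine decarboxylase GRMZM2G140824_T01 had 28 reads without and 27 with salt in PR, 49 and 5 for CR, and 28 and 29 for SR. It fell in CR by a log2 ratio of -3.25 (-4.93 to -1.93, FDR 8.23e-08), and the other pairs lay close together (-0.11 in PR, 0.02 in SR). None of the 18 transcripts of proline use and none of the 8 of the GABA shunt were DTGs. Only 2 of the 5 KEGG entries listed for the GABA shunt occurred as a first-ranked hit, and 4 of the 8 for choline supply. These 2 routes were thus followed only in part. Of the 8 GABA shunt transcripts, 2 had at least 50 reads over the 6 libraries.

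The 3 other transcripts whose log2(RPKM + 0.1) over the 6 libraries was most like that of GRMZM2G053720, among 14892 with at least 100 reads, were GRMZM2G474769_T01 (annotated as LATE ELONGATED HYPOCOTYL, r = 0.99), GRMZM2G469012_T01 (a protein phosphatase, r = 0.98) and GRMZM2G047019_T01 (a CCR4-NOT subunit, r = 0.98). The name protein phosphatase rests on a low-scoring hit (bit score 52.0). The amplitude of these 3 transcripts was small. The first had 33, 25, 31, 26, 26 and 22 reads for PR, CR and SR, each without and then with salt. The 6 libraries share 1 salt contrast, and 13 transcripts had an r above 0.95, so this likeness is a description only.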

How the data were processed

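RNA-Seq of 6 libraries was deposited as 1 table. The authors filtered the reads, aligned them with SOAP 2.21 to B73 RefGen_V2, related them to genes with BLAST 2.2.23 and counted uniquely aligned reads per transcript. The deposited counts are not normalized. The deposited RPKM scales the count to transcript length and to the library total of such reads, and it was recomputed from the counts to within 1.74e-06. The authors also deposited the percent of each transcript covered by reads. Lengths were multiples of 3 for 99.96% of transcripts and are called coding lengths. Strand was not given in the sources used here, so antisense reads cannot be told apart, and reads of near-identical copies or isoforms may be split between them. Per the labels 3 biological replicates were collected for a root type, but 1 library per condition was analysed. Root length at treatment is given differently in the labels' fields. No column of values lacked a sample (0 columns).

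Members were found by KEGG entry anywhere among a transcript's hits, and 24 of the 28 carried it as the first hit. The members and the pathway lists were chosen with earlier results of these data known. Reads are given for GRMZM2G053720 and for each member with at least 50 reads, and the 3 transcripts most like GRMZM2G053720 are named. RefSeq gene names (Zm-B73-REFERENCE-NAM-5.0, used for names only) matched 12 of 24 genes by identifier, 11 of them to 1 gene. Sequences were not used here.

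Library pairs were compared by the Audic-Claverie test (2 times the smaller tail, RPKM of 0 set to 0.01), with Benjamini-Hochberg adjustment over all transcripts with a read in the pair. The average salt effect and the root type contrasts used the quasi-likelihood test of edgeR 4.0.16 on counts (TMM, at least 10 reads in at least 3 libraries, FDR 0.05). For the average salt effect the root types stand in as replicates, so its p-values rest on the spread of the salt difference between them. For a root type contrast the samples of a type were its untreated and its salt-treated library, with salt as a term. Its p-values rest on the same spread, not on replicates of a root type. Salt ratios were compared by an exact conditional test of 4 counts (at least 20 reads, FDR 0.001, difference of 1). Separation of the groups was counted for transcripts with at least 50 reads. Alternatives used Fisher's exact test, other scalings, filters and thresholds, edgeR exact tests with an assumed BCV of 0.1 or 0.2, DESeq2 1.42.0, reads summed to genes and left-out libraries. The procedures were tested on simulated data. Scripts ran in R 4.3.3 and Python 3.11.15, with matplotlib 3.10.9 for plots, scipy 1.17.1 for exact tests, and pandas 2.3.3 and numpy 2.4.6 for tables. Without molecular identifiers, intervals and the floor of 3 reads cover counting error only.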

Additional observations from a re-analysis of the deposited data

How the results depend on the processing

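The call of GRMZM2G053720 in PR was kept with Fisher's exact test, TMM or DESeq2 scaling, an FDR of 0.05, a minimum of 20 reads, reads summed to genes and an edgeR exact test at a BCV of 0.1, and was lost at a BCV of 0.2 (0 members). In CR, an FDR of 0.05 gave 2 members, both ProDH genes, but the share of all transcripts called at this FDR is not given here. For the average salt effect the 0 calls became 4 without a filter on low counts (795 against 113 transcripts in all) and 1 with at least 10 reads in 2 libraries, an alternative chosen after seeing the data. Leaving out both libraries of a root type gave 0 to 3 members over both filters. For PR against SR the 1 call became 0 with DESeq2 and 3 without a filter, and 0 to 3 with 1 library left out. For CR against SR the 1 call became 0 with DESeq2 and 2 without a filter, and 0 to 1 with 1 library left out. No member was called for PR against CR or for a difference of salt ratios under any alternative. For the salt ratios each alternative kept the limit of 1 on the log2 difference. At an FDR of 0.05 that limit alone kept out GRMZM5G817886_T02 for CR against SR and GRMZM2G080828 for PR against SR. Shares of all transcripts are not given here for fits with libraries left out or for root type contrasts without a filter, so those member counts are descriptions.

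The average salt effect changed sign for members near 0. With library totals instead of TMM it was 0.0046 for GRMZM2G135341 and 0.0114 for AC203754.4_FGT008. With a root type left out it ranged from -0.0811 to 0.0371 for GRMZM2G135341, from -0.0114 to 0.3075 for GRMZM2G068665, from -0.0528 to 0.0931 for GRMZM2G090087_T02, from -0.28 to 0.3321 for GRMZM2G009953, from -0.2547 to 0.1196 for GRMZM2G080828, from -0.3199 to 0.3643 for GRMZM2G108125_T01, and from -0.1191 to 0.042 for AC203754.4_FGT008. The cause of these changes was not tested. Depth limits the 13 members with under 50 reads. The root type term paired each salt-treated library with the untreated one, and 0 members were called with or without it.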
